A study of Homo sapiens with 6 samples.

Results

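Mitophagy genes of terminal erythroid maturation were examined in HEL cells, an established human erythroleukemia line. The 10 genes, BNIP3L, BNIP3, ULK1, GABARAPL1, GABARAPL2, MAP1LC3B, SQSTM1, PINK1, FOXO3 and TRIM58, were chosen by name, and each had its own entry among the 31999 genes listed in the deposited table. RNA was sequenced from HEL cells carrying a control hairpin (shCtrl, 3 libraries) or a hairpin against TMIGD2 (shTMIGD2, 3 libraries), a receptor of the immunoglobulin family. All 6 libraries came from this line, grown in RPMI with serum and given a short hairpin RNA, and the labels call the libraries of a group biological replicates. The hairpins were delivered by lentivirus for stable knockdown, and which of the study's hairpins against TMIGD2 these libraries carry is not given in the sources used here. No agent that drives erythroid maturation is named for these libraries. The table holds 1 level per gene, the authors' mean log2 CPM (reads of a gene scaled to a fixed library total) over the 6 libraries, beside the authors' own comparison of the groups. That comparison was not used, so shTMIGD2 against shCtrl is not analysed here. Each level below therefore has no error, no n of its own and no test, and a pooled level can hide a difference between the groups. The file gives no counts, so the depth behind each level is unknown.

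A maturing red cell removes its mitochondria by mitophagy, in which an autophagosome encloses the organelle and carries it to the lysosome. BNIP3L, known as NIX as well, is a receptor in the outer mitochondrial membrane that binds ATG8 proteins on the growing autophagosome, and it is best known for its part in reticulocytes. ULK1 is the kinase that starts autophagosome formation, and PINK1 is the kinase that marks damaged mitochondria for removal. FOXO3 is a transcription factor of autophagy genes, and TRIM58 is an erythroid ubiquitin ligase that acts on dynein.

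Pooled over the 6 libraries, markers of the erythroid and megakaryocyte lineages were present, which does not check single libraries or tell HEL from other erythroleukemia lines. Of 12 erythroid markers, 11 lay at 1 CPM or more, among them GATA1 at 7.97 log2 CPM and KLF1 at 7.62, and SLC4A1, the anion exchanger of late red cells, lay below at -0.19. All 5 megakaryocyte markers lay at 1 CPM or more, with ITGA2B highest at 10.54 log2 CPM. Of 10 markers of T cells, B cells, fibroblasts, epithelium and macrophages, 6 were listed and 0 reached 1 CPM, with a summed level of 1.54 CPM. TMIGD2 itself had a pooled level of 4.08 log2 CPM, which cannot check the hairpin labels.

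All 10 mitophagy genes lay at 1 CPM or more, as did 14000 of the 31999 genes listed (43.8%). The 10 genes are protein-coding, and of 16660 genes matched to a protein-coding gene, 11491 with a transcript length lay at 1 CPM or more. The median of the 10 genes was 5.97 log2 CPM, against -0.97 over all genes and 4.55 over genes at 1 CPM or more. Of the 10, 8 lay above the latter. Their median percentile among all genes listed was 88.2. Together the 10 genes took 592 CPM. Levels in log2 CPM rise with transcript length, so ratios between genes are given per kilobase (kb) of canonical transcript, and the ends of a list named in log2 CPM only mark its range on that scale.

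**Figure D1:**
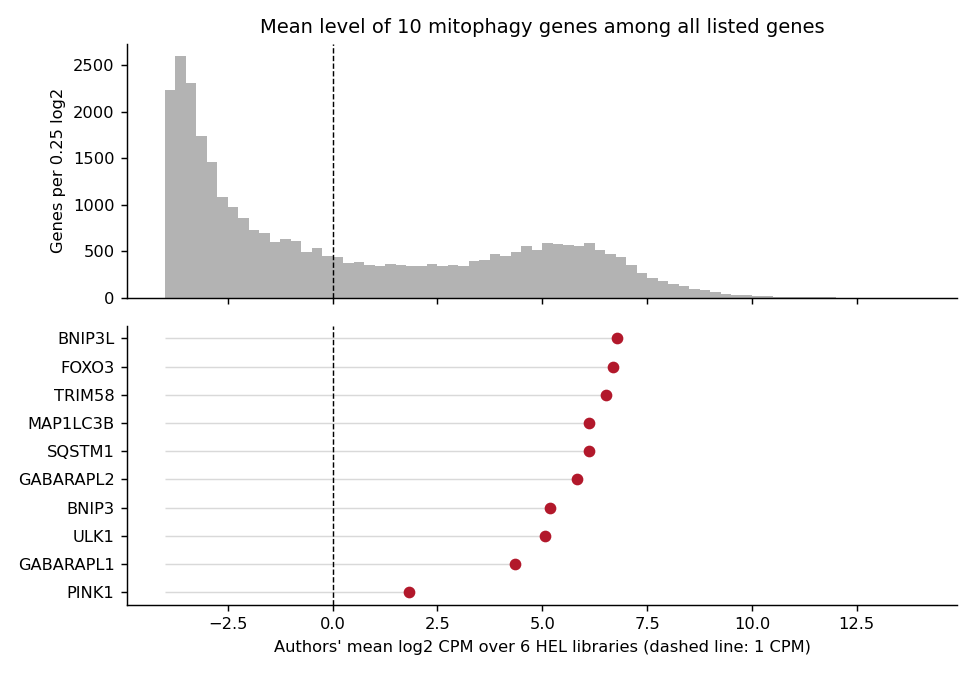
The upper panel counts all 31999 genes by the authors' mean log2 CPM over 6 HEL libraries, and the lower panel places each of the 10 mitophagy genes on the same axis, with a dashed line at 1 CPM. 9 genes sit between 4.35 and 6.78 log2 CPM, and PINK1 sits apart at 1.83.

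The 2 paralogous receptors were both present. BNIP3L, on chromosome 8 with 6 exons, had a mean of 6.78 log2 CPM (110.1 CPM), at the 93.5th percentile of all genes. BNIP3, a hypoxia-responsive receptor encoded on the minus strand at chr10:131967684-131981967, had 5.18 log2 CPM (36.1 CPM). Per kb of canonical transcript the levels were 31.9 CPM for BNIP3L and 23.4 CPM for BNIP3, a ratio of 1.36. The gap was wider on the other scales. With the longest transcript the levels were 31.9 and 11.8 CPM per kb, and with coding length 167.5 and 62.1. By CPM alone the ratio was 3.04. Among the 8 mitophagy receptors examined, all at 1 CPM or more, PHB2 was highest per kb at 252.6 CPM (8.44 log2 CPM). PHB2 is a prohibitin of the inner membrane with roles beyond mitophagy. FKBP8, an outer membrane receptor, followed at 123 CPM per kb, and BNIP3L and BNIP3 were the third and the fourth. The remaining receptors lay at 13.5 CPM per kb for FUNDC1, 11.8 for BCL2L13, 8.08 for NLRX1 and 4.79 for FUNDC2. This order is that of canonical length. Per kb of longest transcript FKBP8 (121.6 CPM) lay above PHB2 (118.5), and FUNDC1 (13.3) lay above BNIP3 (11.8).

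ATG8 proteins are the small ubiquitin-like proteins that coat the autophagosome and that receptors bind. MAP1LC3B, at chr16:87383953-87404779 on the plus strand, had 6.11 log2 CPM (69.1 CPM). GABARAPL2, also on the plus strand at chr16:75566375-75577881, had 5.83 log2 CPM (57.0 CPM), and GABARAPL1, at chr12:10212458-10223128, had 4.35 (20.4 CPM). Per kb of canonical transcript GABARAPL2 had 58.5 CPM, MAP1LC3B 32.2 and GABARAPL1 10.8. The other family genes were low: MAP1LC3B2 had 0.92 log2 CPM, GABARAP -1.84 and MAP1LC3A -3.66, and MAP1LC3C was not listed. MAP1LC3A sits near the lowest value of all genes, -3.76 log2 CPM, so its share below is not a measured amount. Of the length-scaled level of the listed family, GABARAPL2 held 56.2%, MAP1LC3B 30.9%, GABARAPL1 10.4%, MAP1LC3B2 2.21%, GABARAP 0.203% and MAP1LC3A 0.0786%. The order of the leading pair depended on length: with CPM alone MAP1LC3B held 46.5% and GABARAPL2 38.3%, and with coding length 44.9% and 39.5%. GABARAPL1 was the third under each of these scalings. GABARAP shares 52.4% of its canonical exons with another gene on the same strand, which was not listed. Of its canonical exons, 15.8% lie opposite exons of a gene on the other strand. The part of these overlaps in the level of GABARAP was not tested, so every family share is uncertain to that extent. The authors counted on a refSeq annotation, and the overlaps given here are those of GENCODE 44, which may differ from it.

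**Figure D2:**
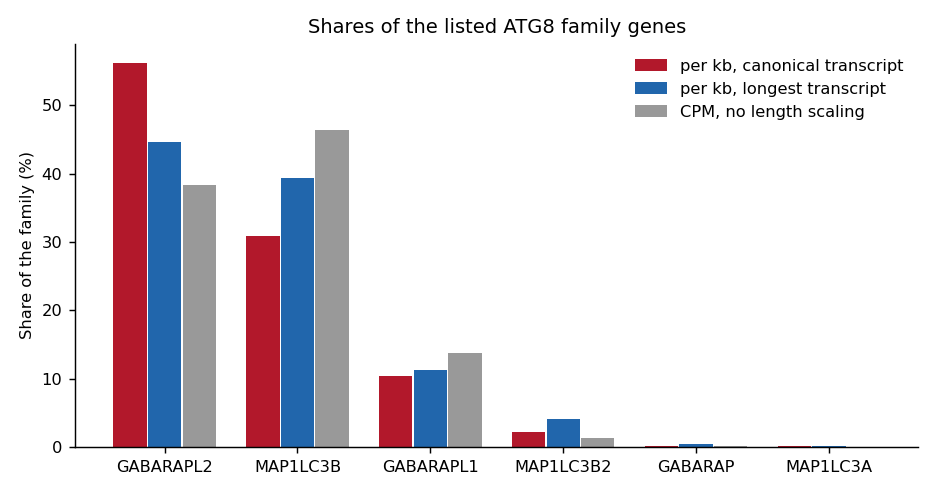
Bars give each listed ATG8 family gene's share (%) of the family's summed level, per kb of canonical transcript, per kb of longest transcript and as CPM with no length scaling. GABARAPL2 leads on the canonical (56.2%) and longest (44.7%) lengths, and MAP1LC3B leads on CPM (46.5%).

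SQSTM1, which encodes the cargo adaptor p62, had 6.11 log2 CPM (68.9 CPM) and 24.3 CPM per kb, at chr5:179806398-179838078 on the plus strand. All 8 cargo adaptors lay at 1 CPM or more, from TOLLIP at 4.41 log2 CPM to TAX1BP1 at 6.90. Of the canonical exons of SQSTM1, 55.7% lie opposite exons of MRNIP, which had 2.75 log2 CPM.

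ULK1, at chr12:131894622-131923150 with 28 exons, had 5.07 log2 CPM (33.6 CPM) and 6.32 CPM per kb, the ninth of the 10 genes per kb under canonical, longest and coding length. Its relative ULK3 had 6.94 log2 CPM and was 7.56 times ULK1 per kb, whereas ULK2 had -1.07 and ULK1 was 121 times ULK2 per kb. The partners of ULK1 were all at 1 CPM or more: RB1CC1 (FIP200), a scaffold, at 15.2 CPM per kb (6.66 log2 CPM), ATG101 at 14.5 (4.38 log2 CPM) and ATG13 at 12.7 (5.75 log2 CPM). Of the ULK complex list, 5 of 6 genes thus reached 1 CPM. The same was true of 8 of 8 genes of the PI3K complex (highest BECN1, 5.90 log2 CPM; lowest ATG14, 4.24) and of 18 of 19 conjugation and membrane genes, of which ATG3 was highest at 6.56 and ATG9B lowest at -0.57. Upstream kinases and their partners had 11 of 11 listed genes at 1 CPM or more, from DEPTOR at 1.58 log2 CPM to MTOR at 7.82.

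PINK1, at chr1:20633458-20651511 on the plus strand, had 1.83 log2 CPM (3.55 CPM), at the 64.6th percentile of all genes, and was the lowest of the 10 genes per kb under all 3 lengths. Per kb it had 1.33 CPM, and BNIP3L had 23.9 times as much. It was also the lowest per kb of the 14 genes examined of its pathway, all at 1 CPM or more, in which VDAC1, a channel of the outer membrane, was highest at 229.7 CPM per kb. Of the canonical exons of PINK1, 58.1% lie opposite exons of its antisense gene PINK1-AS, which had 1.69 log2 CPM. The library kit keeps strand, but the strand setting of the counting is not given in the sources used here, so reads of PINK1 and PINK1-AS, and of SQSTM1 and MRNIP, may not have been told apart.

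FOXO3, at chr6:108559835-108684774 on the plus strand, had 6.68 log2 CPM (102.4 CPM) and 14.0 CPM per kb. Of the 9 transcription factors examined, HIF1A, the oxygen-regulated factor, was highest per kb at 21.6 CPM, and FOXO3 lay below it. FOXO3 was 2.08 times FOXO4 and 53.5 times FOXO1 per kb, and FOXO1 was the lowest factor per kb at 0.262 CPM. FOXO6 had 0.35 log2 CPM. TFEB, a regulator of lysosome genes, had 0.56 log2 CPM, whereas TFE3, MITF and TFEC of the same list had 4.93, 4.56 and 4.52. All 9 lysosome genes examined lay at 1 CPM or more, from HEXA at 3.29 log2 CPM to CTSB at 7.59.

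TRIM58, at chr1:247857187-247880138 on the plus strand, had 6.51 log2 CPM (91.1 CPM) and 17.6 CPM per kb, at the 91.9th percentile of all genes. The 5 dynein genes listed with it ran from DYNC1I1 at 2.51 log2 CPM to DYNC1H1, the heavy chain, at 7.87. A list of 8 genes of late erythroid maturation and clearance held TRIM58 itself and the erythroid transcription factor KLF1, which is counted among the erythroid markers as well. Of these 8 genes 6 reached 1 CPM, TRIM58 and KLF1 among them, with XPO7 highest at 7.72 log2 CPM. The other 2 were UCHL1 at -1.16 and ALOX15, a lipoxygenase of reticulocytes, at -3.48.

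**Figure D3:**
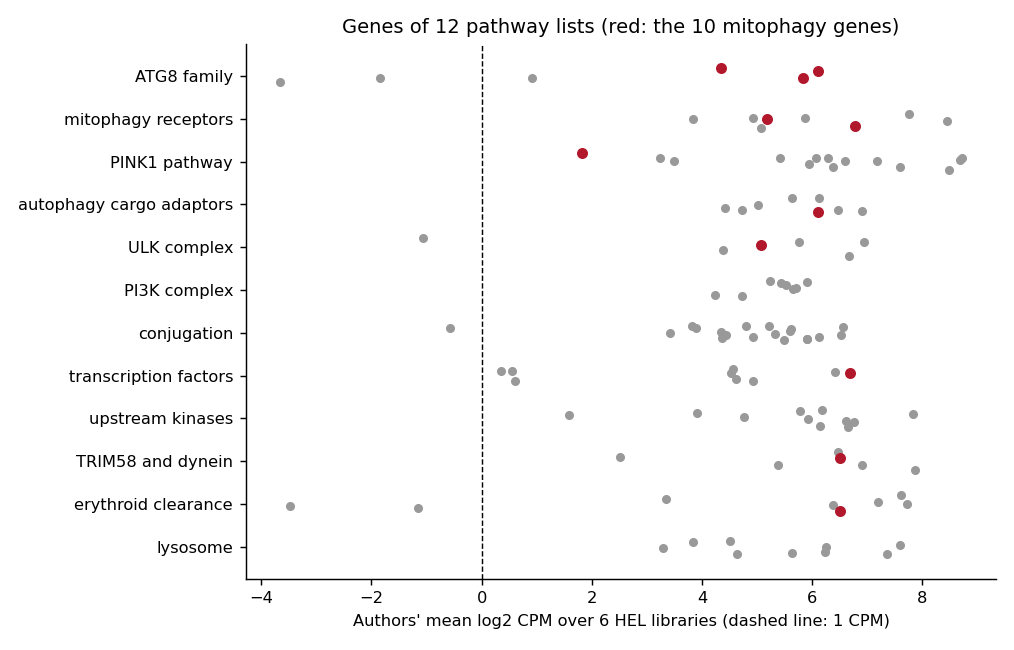
Each point is a gene of 1 of 12 pathway lists at the authors' mean log2 CPM over 6 HEL libraries, with the 10 mitophagy genes in red and TRIM58 in 2 lists. PINK1 is the lowest point of its list at 1.83, and FOXO3 the highest of its list at 6.68.

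Outside the 10 genes the lists held 103 genes, of which 101 were listed and 95 lay at 1 CPM or more, with a median of 5.60 log2 CPM over those listed. Per kb of canonical transcript, the 10 genes had a median of 20.5 CPM, against 9.50 over 11491 protein-coding genes at 1 CPM or more, and 8 of the 10 lay above that median. From the highest per kb, the order was GABARAPL2, MAP1LC3B, BNIP3L, SQSTM1, BNIP3, TRIM58, FOXO3, GABARAPL1, ULK1 and PINK1, and the first was 43.8 times the last. The ratio of neighbours in this order ran from 1.01, for MAP1LC3B over BNIP3L, and 1.04, for SQSTM1 over BNIP3, to 1.82 for GABARAPL2 over MAP1LC3B and 4.73 for ULK1 over PINK1. With no spread over libraries it cannot be said which neighbours differ. With coding length GABARAPL2 was 0.881 times MAP1LC3B, and with the longest transcript MAP1LC3B was 0.692 times BNIP3L. The gap between ULK1 and PINK1 was 4.73 times with canonical transcripts, 6.81 times with the longest and 5.25 times with coding length.

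**Figure D4:**
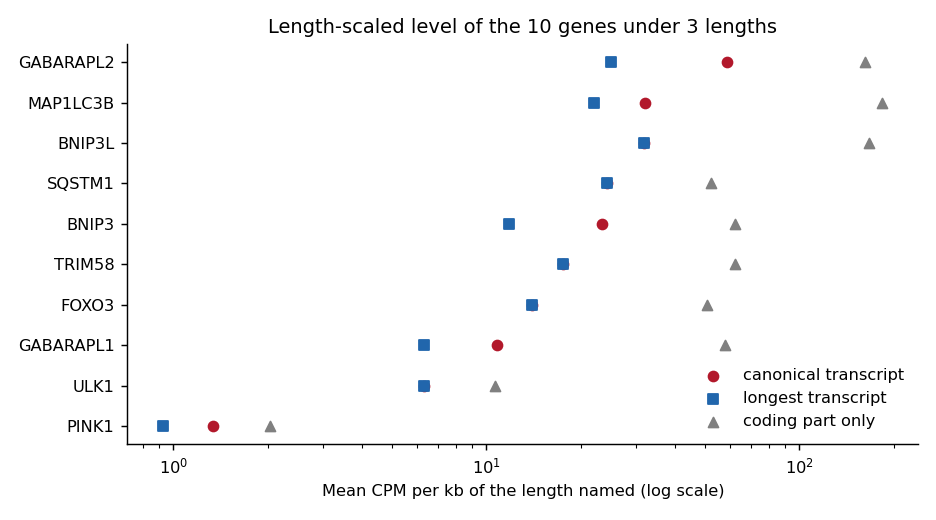
Points give mean CPM per kb (log scale) of each gene with 3 lengths, the canonical transcript, the longest transcript and the coding part (a square covers the circle where the canonical transcript is the longest or nearly so). PINK1 is last with each length, at 1.33 CPM per kb of canonical transcript, and the order of the upper genes changes with the length used.

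3 of the 10 genes share windows of 100 bases with near copies elsewhere in the genome, which matters for a level counted from short reads. Of all 100-base windows of the canonical transcript, 23.6% of FOXO3, 13.5% of MAP1LC3B and 12.8% of BNIP3 occur exactly in a transcript of another gene. The other genes are FOXO3B, at 2.74 log2 CPM, MAP1LC3B2, at 0.92, and the pseudogene BNIP3P1, at 0.57. PINK1 shared 0.430%, with MIR6084 inside it, and the other 6 genes shared 0. With windows of 50 bases GABARAPL1 shared 1.69%, with GABARAPL3, which was not listed, and TRIM58 shared 2.99%, spread over 142 genes. In the coding part alone the shares at 100 bases were 46.7% for FOXO3, 75.4% for MAP1LC3B and 8.28% for BNIP3. How the authors' counting treated reads that match both copies is not given in the sources used here, so the levels of these 3 genes and their copies are uncertain to that extent.

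**Figure D5:**
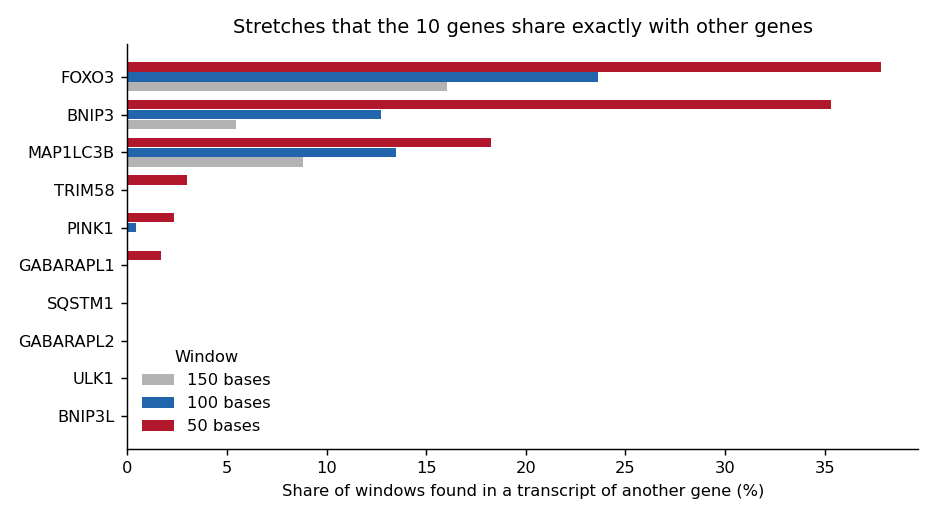
Bars give the share (%) of windows of 50, 100 and 150 bases in each gene's canonical transcript that occur exactly in a transcript of another gene. FOXO3 (23.6%), MAP1LC3B (13.5%) and BNIP3 (12.8%) stand out at 100 bases.

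To show how close the copies are, the start of the longest coding exon is printed for MAP1LC3B and BNIP3 beside the best matching stretch of the copy, from GENCODE transcripts on GRCh38, with differing bases in capitals. MAP1LC3B, exon 4 at chr16:87402923-87403094 on the plus strand, and MAP1LC3B2, at chr12:116576146-116576317 on the plus strand, are identical at 171 of 172 bases, with an unbroken run of 134. BNIP3, exon 2 at chr10:131973793-131973943 on the minus strand, and BNIP3P1, at chr14:28264436-28264586 on the plus strand, are identical at 145 of 151 bases, with a longest run of 59.
MAP1LC3B: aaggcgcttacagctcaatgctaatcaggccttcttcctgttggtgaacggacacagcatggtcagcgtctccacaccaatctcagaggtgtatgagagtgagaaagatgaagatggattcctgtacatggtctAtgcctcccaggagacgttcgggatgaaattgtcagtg
MAP1LC3B2: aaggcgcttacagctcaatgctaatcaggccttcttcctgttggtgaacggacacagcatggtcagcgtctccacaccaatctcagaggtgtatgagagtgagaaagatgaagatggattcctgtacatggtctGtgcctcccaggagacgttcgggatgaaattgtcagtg
BNIP3: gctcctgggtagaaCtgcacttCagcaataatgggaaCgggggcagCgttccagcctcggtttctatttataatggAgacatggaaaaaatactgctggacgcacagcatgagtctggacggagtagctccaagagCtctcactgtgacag
BNIP3P1: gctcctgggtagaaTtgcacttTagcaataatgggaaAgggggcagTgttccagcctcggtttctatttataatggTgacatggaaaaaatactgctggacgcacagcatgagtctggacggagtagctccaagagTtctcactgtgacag

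By contrast the family members among the 10 genes are far apart. Over aligned coding bases BNIP3 and BNIP3L were 72.0% identical, GABARAPL1 and GABARAPL2 61.8%, GABARAPL2 and MAP1LC3B 58.5% and GABARAPL1 and MAP1LC3B 55.5%, whereas MAP1LC3B and MAP1LC3B2 differed at 2 of 375 coding bases. None of these member pairs shared a window of 100 bases.

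Promoters of 8 of the 10 genes, all but BNIP3L and PINK1, 300 bases each around the RefSeq start and mostly before it (GRCh38.p14), were searched on both strands for short motifs. AGATAA and TGATAA, letters of a GATA site, and GTAAACA, of a forkhead site, were found in 0 of 8, against 10.5%, 7.76% and 3.41% of 27305 promoters and 5.19%, 3.61% and 2.26% of the 9572 promoters of genes at 1 CPM or more. ACGTG, the hypoxia core, occurred in BNIP3 and GABARAPL2 (21.6% of all promoters and 26.9% of those of genes at 1 CPM or more). CACGTG, which contains it, and CCAAT occurred in BNIP3 only among the 8 (7.43% and 35.7% of all promoters, 10.2% and 37.1% of those of genes at 1 CPM or more). A match describes letters, not binding, and no match says only that the letters are not in this window. The 8 promoters had a median GC content of 76.3%, against 58.3% over all promoters and 65.3% over 9572 promoters of genes at 1 CPM or more.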

How the data were processed

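RNA of HEL cells was sequenced from 3 shCtrl and 3 shTMIGD2 libraries, grouped by their titles. Per the study's methods and processing notes, poly(A) directional libraries were aligned with STAR 2.6.1b to hg38 and counted with HTSeq 0.6.1 on a refSeq annotation, and the notes name DESeq2 3.11 and edgeR as used by the authors. The deposited table gives the authors' mean log2 CPM per gene over 6 libraries, which was converted to CPM. Its other 4 columns hold the authors' log2 fold change, F, p-value and adjusted p-value, and were not used. The study's methods give a filter on low mean counts for DESeq2 by the authors, and whether it applies to the deposited table is not given in the sources used here, nor are normalization and strand setting. Over the 31999 genes the CPM sum to 1002514, and the lowest value, -3.76 log2 CPM, is shared by 154 genes, so low levels sit near a floor.

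Positions and lengths came from GENCODE 44 on GRCh38, matched by symbol. Levels between genes were divided by canonical transcript length. Windows of 100 bases were searched in all GENCODE transcripts, with 50 and 150 as alternatives. Python 3.11.15, pandas 2.3.3 and Biopython 1.88 were used, and the window and percentile steps were tested on simulated data. Named genes were the 10 genes, and every gene of the ATG8, ULK and receptor lists, with the highest and lowest of the other lists, of which some genes are not reported here. HHLA2 (-3.66 log2 CPM) was not followed further. The 10 genes and the lists were chosen with earlier results of these data known, and the searches for copies, overlaps and motifs, with the stretches printed, were added after seeing the data. Other genes named from the lists (HIF1A, TFEB, TFE3, MITF, TFEC, FOXO1, FOXO4, GATA1, KLF1, UCHL1) were chosen after their values were seen.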

Additional observations from a re-analysis of the deposited data

How the results depend on the processing

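The values of the 10 genes are descriptions with no test, and each moved with its scale. Their median percentile of 88.2 among all genes became 73.0 among genes at 1 CPM or more and 77.8 among genes matched to a protein-coding gene. Their median CPM per kb of 20.5 became 15.8 with the longest transcript and 60.1 with coding length. Of the ATG8 family, MAP1LC3B held 46.5% with no length scaling, 31.6% without MAP1LC3B2, 39.3% with the longest transcript and 44.9% with coding length. GABARAPL2 held 38.3%, 57.5%, 44.7% and 39.5% in the same order, and GABARAPL1 13.7%, 10.6%, 11.3% and 14.1%. The protein-coding, coding-length and family-share length settings were chosen after seeing the data, and those that needed a protein table were not run. The test of shTMIGD2 against shCtrl by edgeR, and its alternatives with DESeq2 size factors, no filter and each replicate left out, were not run, since no counts per library were used. No paired analysis was possible because the file used has no column per library. With no counts, depth limits cannot be given.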
